A study of Mus musculus with 66 samples.

Results

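In mice raised in room air, blood mononuclear cell samples held much less Atf5, Asns and Trib3 RNA at P28 than at P17. They held more RNA of the Ly6C surface proteins, of 10 of 20 B cell markers and of 10 of 21 MHC genes, where 667 of all 12802 genes tested (5.21%) were called higher. Atf5, a transcription factor made when translation initiation is restrained, was 34.4-fold lower at P28. Asns, the enzyme that makes asparagine, was 11.9-fold lower, and Trib3, a pseudokinase that feeds back on the same response, was 4.61-fold lower. The rises were smaller, at most 2.67-fold (Cul4a, a ubiquitin ligase scaffold), with Fcer2a, the low-affinity IgE receptor of mature B cells, 2.55-fold higher and B2m, the light chain of MHC class I, 2.56-fold higher. With scan day as a block 2 of the B cell markers, 2 of the MHC genes and 106 of all 12802 genes were called higher, and with the scanner software's signals Fcer2a was 0.21 log2 higher without passing. These values compare 11 P28 normoxia mice with 12 P17 normoxia mice, 23 of the 66 mice of the series, all C57BL/6 and all kept in room air (21% oxygen).

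The series was made from a mouse model of retinopathy of prematurity. Nursing litters were randomised to 75% oxygen (hyperoxia) until P12 or to room air throughout, and 1 blood sample a mouse was taken at P12, P17 or P28, from which mononuclear cells were then separated on a density gradient. The 2 groups here never received extra oxygen, so they differ by age, in an interval that in laboratory mice spans the change from milk to solid food. The labels give neither the litter of a mouse nor its day of weaning. Mice of 1 group may share a litter, and p-values measure the spread between these mice only.

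The integrated stress response is the cell's shared answer to scarce amino acids, unfolded protein, haem shortage and viral double-stranded RNA. A family of kinases, among them the haem-regulated kinase of red cell precursors, phosphorylates the initiation factor eIF2 alpha, which lowers translation overall while ATF4 and ATF5 are translated more. ATF4, often paired with a C/EBP protein, switches on genes for amino acid synthesis and uptake, for tRNA charging and for one-carbon metabolism in mitochondria. In young mice circulating reticulocytes are abundant, and the pool of mature follicular B cells is still growing.

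ATF4 and C/EBP proteins bind a composite element whose letters were searched as TGATGNAAN on both strands, together with the related octamer TTGCATCA. The window ran from 250 bases before to 50 bases after each annotated start (RefSeq, GRCm38.p6), for the 8 genes of the stress response and amino acid synthesis lists that were lower at P28. These had 9 such promoters, and 2 of them held a match to TGATGNAAN, those of Asns and Trib3, which were also 2 of the 3 genes with the greatest fall. Among all 32851 promoters of the same length 3.95% held TGATGNAAN and 0.895% held TTGCATCA. The match is shown in capitals, 5′ to 3′ on the strand of the gene; in Trib3 the capitals are the element read from the opposite strand. The stretches lie at chr6:7693210-7693309 (minus strand, the 100 bases before the annotated start of Asns) and chr2:152344029-152344057 (minus strand, just past the annotated start of Trib3).
Asns: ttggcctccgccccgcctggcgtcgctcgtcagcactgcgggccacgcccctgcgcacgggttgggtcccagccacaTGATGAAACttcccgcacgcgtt
Trib3: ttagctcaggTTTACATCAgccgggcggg
A match to these letters is a description of the sequence, and the absence of a match in the other promoters says only that the letters are not in those windows.

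Each array carried 1 blood sample against Universal Mouse Reference RNA, and a level is given as log2 of the Cy3 over the Cy5 signal. The labels put blood in Cy5, but the intensities do not. Across the 23 arrays Cy5 correlated at a median r of 0.994 between arrays against 0.965 for Cy3, the alpha-globin gene Hba-a1 lay at 17.82 to 18.17 (log2 intensity) in Cy3 against 10.08 to 11.88 in Cy5, and the B cell gene Cd79a was above background on 23 arrays in Cy3 and on 0 in Cy5. Cy3 is therefore read as blood, which opposes the labels. If the labels were right, all fold changes, levels and changes of ratios in the text would have the opposite sign or direction. The series' design text speaks of retinal cells, whereas the rod photoreceptor genes Gnat1 and Rcvrn were above background on 0 of the 23 arrays, and Sag and Crx on 23. The arrays were scanned on 2 days, with 4 P17 mice on day 1 and 8 on day 2, against 10 P28 mice on day 1 and 1 on day 2. The share of probes above background was 33.1%, 41.6% and 47.1% (lowest, median, highest) at P17 and 38.7%, 46.0% and 53.6% at P28. The difference of 6.07 percentage points had a two-sided permutation p of 0.00348 over all mice and fell to 4.50 points on day 1 alone (exact permutation p = 0.0120). On day 2, with 8 mice against 1, it was -0.77 points (exact permutation p = 1), in a comparison that cannot reach a p of 0.05. P17 mouse 4 stood apart from its group in several of the genes below, and for some of them the result without it is given too.

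Of 24865 probes tested, 1986 (7.99%) differed between the ages at an adjusted p of 0.05 (limma, Benjamini-Hochberg), 1237 of them higher at P28 and 749 lower. With 1 probe a gene, 667 of 12802 genes (5.21%) were higher and 338 (2.64%) were lower. Scan day bears on these counts. With scan day as a block 290 probes passed, within day 1 alone 251 passed, and with slide as a block 61 passed. Of the 1986 probes 1986, 1984 and 1982 kept their sign under these fits. On day 2 alone, where P28 has 1 mouse, 1757 kept it, and 1570 did under the median centring described next. The probes were picked by their difference on these same arrays, so kept signs are no separate support. With the share of probes above background as a covariate 1661 probes passed, of which 729 were among the 1986. Scaling bears on the split: centring each array on its median, with no loess correction, called 9418 probes higher and 60 lower and moved the median change of all genes from 0.02 to 0.42 (log2). A list is therefore read against the median of all genes in the same scaling. Its calls are read against 667 higher and 338 lower of all 12802 genes. With scan day as a block these counts were 106 and 54, and with slide as a block 28 and 9. With the share of probes above background as a covariate they were 502 and 413.

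Atf5 and Atf4, the factors translated more when eIF2 alpha is phosphorylated, were lower at P28. Atf5 lay at -2.15, 2.22 and 3.65 (lowest, median, highest log2 ratio to the reference) at P17 and at -3.92, -2.98 and -2.41 at P28. The groups did not overlap, and the lowest P17 value was that of mouse 4, the next being 1.32. The difference was -5.10 log2 (SE 0.44, adjusted p = 5.07e-07), and both Atf5 probes on the array fell. Without mouse 4 it was -5.48. Atf4, the central factor of the response, lay at 0.03, 1.44 and 2.27 at P17 and at -0.30, 0.03 and 0.56 at P28, with some overlap, and fell by 1.24 (SE 0.194, adjusted p = 4.44e-04). Its call was lost under median centring, where its change was -0.57 (adjusted p = 0.0836). Both were also lower with scan day as a block, Atf5 with an adjusted p of 2.54e-05 and Atf4 of 0.00168. With slide as a block Atf5 passed (0.0139) and Atf4 did not (0.125). Lower levels of an RNA per cell and fewer of the cells that hold it cannot be told apart in bulk samples, here or in any result below.

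Of the regulators downstream of these factors, Trib3 lay at -2.83, -0.83 and 0.69 at P17 and at -3.35, -2.98 and -2.71 at P28, so that the groups overlapped by mouse 4 alone, and its change was -2.21 (SE 0.297, adjusted p = 1.02e-04). Ddit3, the factor CHOP that is tied to cell death under long stress, fell by 0.54 (SE 0.103, adjusted p = 0.00238), a call that was lost with scan day as a block (0.0760) and under median centring (-0.15, adjusted p = 0.323). Cebpg, a C/EBP partner of ATF4, was 0.25 lower (adjusted p = 0.0145), but stood at 0.24 under median centring, where the median of all genes was 0.42, and a second probe of the gene gave -0.15 without passing. Of the 13 list members tested, 5 were lower and 0 were higher, with a median change of -0.25 against 0.02 over all genes. Under median centring 2 of the 13 were lower and the median was 0.29 against 0.42 over all genes. With scan day as a block 3 of the 13 were lower, and with slide as a block 1, Atf5, Trib3 having an adjusted p of 0.0820.

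The other 8 tested regulators did not pass. They include Sesn2, a stress-induced inhibitor of mTORC1, at -0.02 (95% interval -0.27 to 0.23), Ppp1r15a, the phosphatase subunit that restores translation, at -0.20 (-0.46 to 0.05), Nupr1 at -0.25 (-0.83 to 0.34), Eif4ebp1, a brake on cap-dependent translation, at -0.36 (-0.88 to 0.16), Atf3 at -0.09 (-0.53 to 0.35), Ddit4 at -0.21 (-0.81 to 0.39), Cebpb at 0.05 (-0.56 to 0.65) and Jdp2 at -0.31 (-0.53 to -0.08, adjusted p = 0.0797). Chac1, Stc2, Vldlr, Fgf21 and Gdf15 were on the array but were not above background on enough arrays to be tested. None of the 8 eIF2 alpha kinases and partners passed either, with changes between -0.20 and 0.31. The nearest were Gcn1, the activator of the amino acid sensing kinase, at 0.31 (adjusted p = 0.0964), and Impact, an inhibitor of it, at -0.20 (adjusted p = 0.166).

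**Figure D1:**
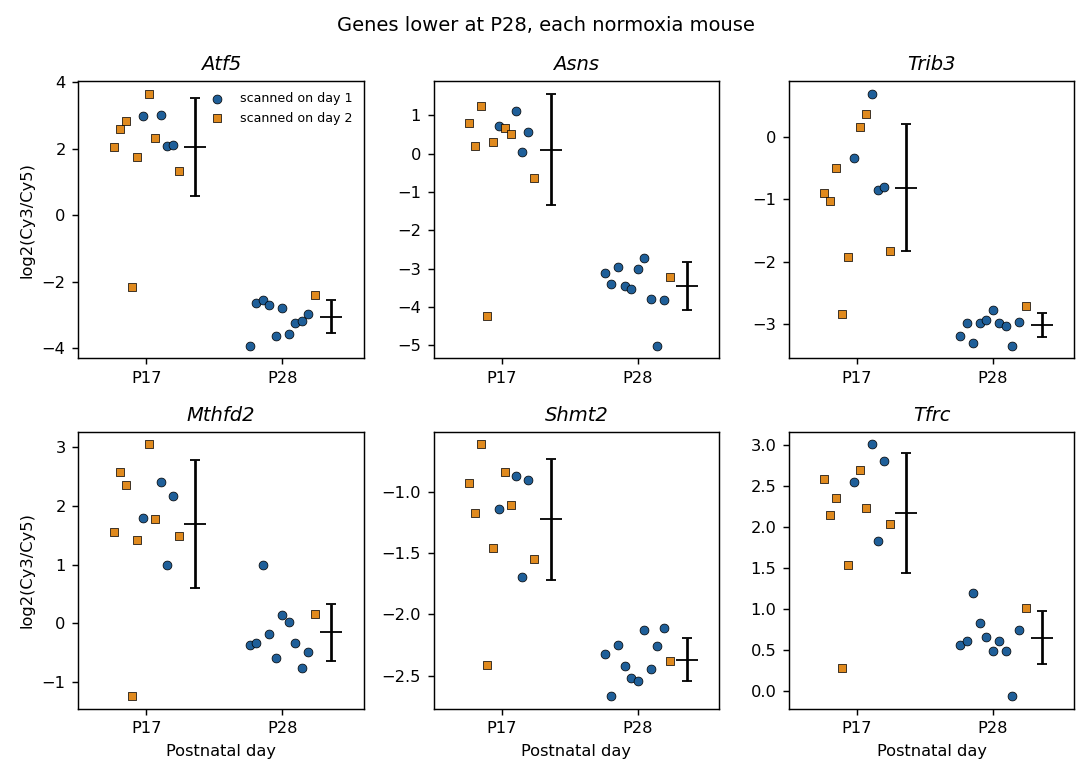
Log2 ratio of blood to reference RNA for Atf5, Asns, Trib3, Mthfd2, Shmt2 and Tfrc in each P17 (n = 12) and P28 (n = 11) normoxia mouse, with circles for scan day 1, squares for scan day 2 and bars for the mean ± SD. The P28 mice lie at low values, and P17 mouse 4 lies among or near them in each panel (Atf5 at -2.15 against 1.32 to 3.65 in the other P17 mice). For Mthfd2 the P28 range also reaches the next lowest P17 mouse, at 0.985.

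Asns, Mthfd2 and Shmt2 fell too. Asns lay at -4.25, 0.53 and 1.24 at P17 and at -5.01, -3.40 and -2.71 at P28. Only mouse 4 of the P17 group lay within the P28 range, the next lowest being at -0.63. The change was -3.57 (SE 0.452, adjusted p = 5.24e-05) and -3.96 without that mouse, and the second Asns probe fell by 1.30. Mthfd2, which oxidises methylene-tetrahydrofolate in mitochondria, lay at -1.25, 1.79 and 3.05 at P17 and at -0.76, -0.34 and 0.99 at P28, a change of -1.85 (SE 0.341, adjusted p = 0.00188). Shmt2, which passes the carbon of serine to that pathway, lay at -2.41, -1.12 and -0.61 at P17 and at -2.67, -2.38 and -2.11 at P28 and fell by 1.15 (SE 0.151, adjusted p = 7.35e-05). All 3 enzymes also passed with scan day as a block, and none did with slide as a block (adjusted p = 0.0804, 0.360 and 0.0817). Shmt2 lost its call under median centring, where it stood at -0.52 (adjusted p = 0.0676).

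These 3 were the only members of the 13 tested in the amino acid synthesis list to pass, in either direction, and the median of the list was -0.15. Under median centring 2 were lower, Asns and Mthfd2, and 4 were higher, with a median of 0.36 against 0.42 over all genes. The serine pathway enzymes did not pass, with Phgdh at -0.30 (95% interval -0.65 to 0.04), Psat1 at -0.27 (-0.54 to 0.01) and Psph at -0.15 (-0.32 to 0.02). Got1, an aspartate aminotransferase, stood at -0.15 and Mthfd1l, a mitochondrial folate enzyme, at -0.08. Glul, which makes glutamine, stood at 0.53 (-0.06 to 1.11), Ass1 and Asl, of arginine synthesis, at 0.12 and 0.01, Cbs at 0.01 and Aldh18a1, of proline synthesis, at -0.02. Aldh18a1 passed in the other direction under median centring, at 0.52.

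Of the enzymes that charge tRNAs, Aars, for alanine, separated the ages fully. It lay at -2.47, -1.87 and -1.50 at P17 and at -3.25, -3.08 and -2.73 at P28, without overlap, and fell by 1.12 (SE 0.097, adjusted p = 5.07e-07). It was lower on each of the 4 slides that held both groups, by 0.86 to 1.18, and kept its call with slide as a block (adjusted p = 0.0170). Its call was lost under median centring, with a change of -0.47 (adjusted p = 0.0604). Sars, for serine, fell by 0.66 (SE 0.0905, adjusted p = 1.16e-04) but stood at -0.01 under median centring. Cars and Mars1 were 0.27 and 0.24 lower, both lost the call with scan day as a block (adjusted p = 0.760 and 0.634), and under median centring they stood at 0.34 and 0.15, below the 0.42 of all genes. In all, 4 of 20 were lower and 0 were higher, but under median centring 0 were lower and 6 higher, with a median of 0.49 against 0.42 over all genes. Of 10 amino acid transporters 1 passed (3, all higher, under median centring), Slc3a2, the heavy chain shared by several of them, which fell by 0.94 (adjusted p = 0.00288) on 1 of its 2 probes, the other standing at -0.07, and which stood at -0.28 under median centring without passing. Of 14 unfolded protein response genes 1 passed, the chaperone Pdia4 at -0.32, which lost its call with scan day as a block (adjusted p = 0.466).

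Red cell precursors depend on iron uptake and haem synthesis, and 3 genes of those steps were lower. Tfrc, the transferrin receptor, lay at 0.28, 2.29 and 3.01 at P17 and at -0.06, 0.62 and 1.20 at P28. Again mouse 4 was the only P17 mouse within the P28 range, the next lowest lying at 1.53. The change was -1.52 (SE 0.228, adjusted p = 2.92e-04), and both probes fell. Cpox and Alad, enzymes of the haem pathway, fell by 1.08 and 0.84 (adjusted p = 0.0113 and 0.00428). All 3 passed with scan day as a block, and Cpox and Alad lost the call under median centring, at -0.54 and -0.17. With slide as a block none of the 3 passed (adjusted p = 0.133, 0.417 and 0.395), and with the share of probes above background as a covariate 0 of the haem genes passed. Of the 13 iron handling genes no other passed, although 7 were higher and Tfrc lower under median centring and 4 higher and 1 lower with the share of probes above background as a covariate, and of the 13 haem synthesis genes 2 passed. Under median centring, which called 5107 of the 12802 genes higher, 0 of the haem genes were lower and 5 higher, with a median of 0.34 against 0.42.

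Erythroid identity genes did not pass. Of 22 erythroid markers tested 0 passed, with changes between -0.68 and 0.30 and a median of -0.22. The mean log2 ratio over these markers was 3.11, 4.12 and 4.83 (lowest, median, highest) at P17 and 2.31, 3.89 and 4.37 at P28, where P28 mouse 9 was the lowest and P17 mouse 4 was the lowest of its group. With that mean as a covariate 3289 probes passed in place of 1986, and Aars kept a change of -1.08. The measured ratios of the embryonic beta-like globins were higher at P28, from a low level. Hbb-y lay at 0.38, 0.49 and 0.80 at P17 and at 0.49, 1.29 and 1.61 at P28 (0.69 higher, adjusted p = 1.45e-04), and Hbb-bh1 lay at -0.02, 0.13 and 0.25 at P17 and at 0.18, 0.73 and 1.15 at P28 (0.61 higher, adjusted p = 4.46e-05). Both passed with scan day and with slide as a block. With the scanner software's signals the changes were 1.24 and 2.503. The reference channel of both probes was above background on 0 of the 23 arrays, so the size of these changes is not well set. Hbb-bh1 was above background in blood on 5 of 12 P17 and 11 of 11 P28 arrays. It entered the test only through the P28 group, so its call is no separate support. Whether the abundant adult beta-globin RNA adds to these probes was not tested.

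Of the other genes with the greatest falls, Gng5, a G protein gamma subunit, fell by 1.54 (adjusted p = 8.73e-04) and Eif3c, a subunit of the initiation factor eIF3, fell by 1.40 (adjusted p = 1.88e-05). Eif3c lay at -0.43, 0.96 and 1.37 at P17 and at -0.83, -0.67 and -0.36 at P28, the only P17 value in that range being that of mouse 4, and it kept its call with slide as a block (adjusted p = 0.0471). The stefins Cstdc5, Stfa1 and Stfa2, cysteine protease inhibitors of neutrophils and their precursors, fell by 1.95, 1.92 and 1.30. Stfa1 lay at 1.35, 2.23 and 4.96 at P17 and at 0.21, 0.33 and 1.85 at P28, with overlap (adjusted p = 5.18e-04). Mouse 4 was the highest of the P17 group in all 3 stefins, at 5.005, 4.96 and 4.39. Near-identical copies of the stefin A family can share probe signal, and the reference channel was not above background on any array for Cstdc5 and Stfa1. Stfa2 lost its call with scan day as a block (adjusted p = 0.127).

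Of 19 neutrophil markers 3 passed, Stfa1, Stfa2 and Trem1, all lower, while the median of the list was 0.12. Under median centring 2 were lower and 4 higher, where 24 of all 12802 genes were lower and 5107 higher. In the hyperoxia mice described below 5 were lower and 0 higher, with a median of -0.30, where 393 of 12734 genes were lower and the median of all genes was 0.00. Trem1, an activating receptor of myeloid cells, was 0.38 lower as a ratio but stood at 0.03 in Cy3 alone and at 0.33 in Cy5, the reference channel, so that its change lay in the reference. Of 9 granulocyte precursor markers 0 passed. Zbtb16, a transcription factor of innate-like lymphocytes and a target of glucocorticoids, was 1.15 lower as a ratio (adjusted p = 0.0194), of which Cy3 alone gave -0.32 and the reference channel 0.86, and it lost its call with scan day as a block (0.231). Genes of the perinatal growth programme were lower in 2 of 8 cases, where 338 of all 12802 genes (2.64%) were lower. Under median centring 0 were lower and 2 higher. The 2 lower genes were Igf2bp3, an RNA-binding protein of fetal tissues, which fell by 0.58 (adjusted p = 6.87e-04), and Cdkn1c, an imprinted cell cycle inhibitor, by 0.41 (adjusted p = 0.0404). Under median centring they stood at -0.09 and -0.21 without passing, and Cdkn1c kept its call in 11 of the 23 fits that left out 1 mouse.

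Of 20 B cell markers 10 were higher and 0 were lower, with a median of 0.39, where 5.21% of all genes were higher. The other 10 did not pass. Changes ran from -0.30 to 1.35, with 17 above 0 and 3 below. Fcer2a lay at 0.45, 1.49 and 2.21 at P17 and at 2.10, 2.83 and 3.39 at P28 and was 1.35 higher (SE 0.165, adjusted p = 3.59e-05). The groups met only at their edges. With the scanner software's own processed signals the change was 0.21 (adjusted p = 0.786), and the reference channel of this probe was above background on 5 of 23 arrays. In Cy3 alone it was 1.52 higher (adjusted p = 1.85e-05). Cr2, the complement receptor CD21 that appears late in B cell maturation, lay at 0.84, 1.38 and 1.80 at P17 and at 1.64, 2.34 and 2.88 at P28. It was 0.95 higher (SE 0.125, adjusted p = 7.35e-05), and all 3 of its probes rose. The 10 include Bank1, an adaptor of B cell receptor signalling, at 0.75 and Fcrl1, a receptor-like B cell surface protein, at 0.63. The chain Cd79b of the receptor itself stood at 0.56 and the transcription factor Ebf1 at 0.49, both named after their values were seen.

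With scan day as a block 2 of the 20 B cell markers passed, Fcer2a (adjusted p = 0.00335) and Cr2 (0.00785), and with slide as a block 0 passed. With the share of probes above background as a covariate 4 passed and the median was 0.15. With all 6 groups in 1 fit 4 passed, and in Cy3 alone 6 did. The day 1 mean of the 20 markers was 1.975 at P17 and 2.38 at P28. The day 2 mean was 1.94 at P17 and 1.90 in the single P28 mouse. Under median centring 14 rose and the median was 0.93 against 0.42 over all genes. None of 3 tested B cell precursor markers and none of 6 plasma cell markers passed, with medians of -0.46 and -0.08. Without P17 mouse 4 the precursor marker Sox4 passed at -0.54 (adjusted p = 0.0126). The mean log2 ratio of the B cell markers ran from 1.6 to 2.52 at P17 and from 1.90 to 2.73 at P28. That of 25 T cell markers ran from 1.06 to 2.58 and from 1.34 to 1.91. Of those T cell markers 1 passed, Cd247, a signalling chain of the T cell receptor, which was 0.71 lower on 1 of its 3 probes, the others standing at -0.12 and -0.04. It did not pass with scan day as a block (adjusted p = 0.185).

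**Figure D2:**
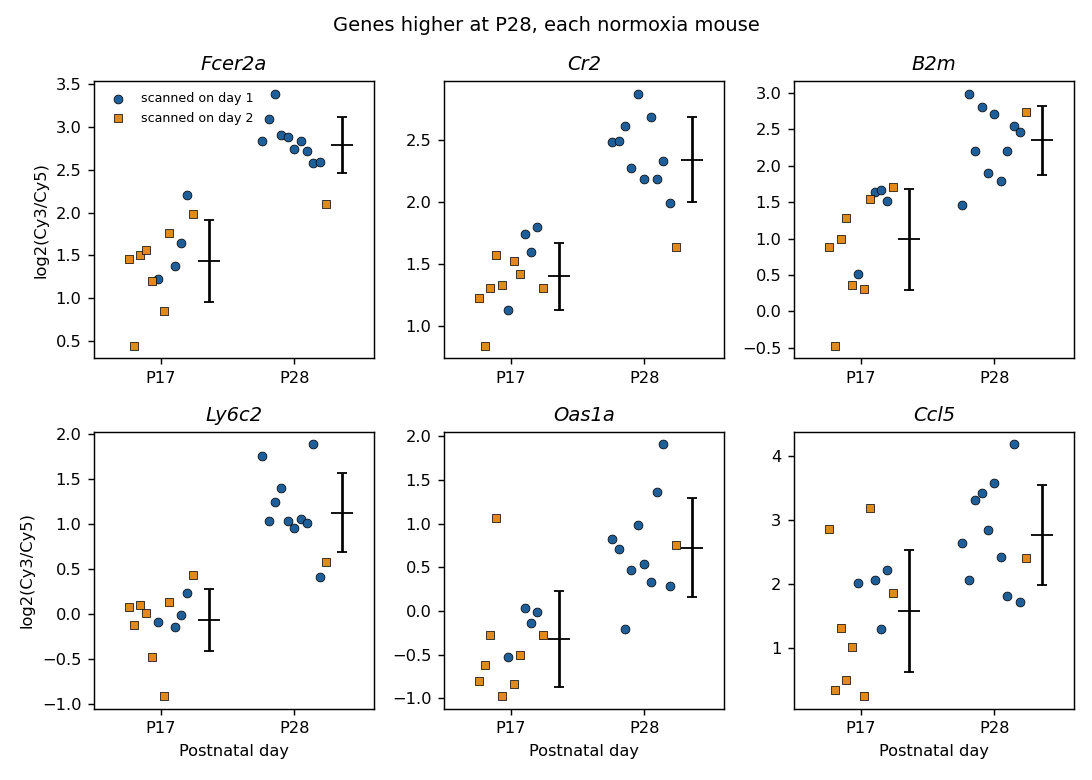
Log2 ratio of blood to reference RNA for Fcer2a, Cr2, B2m, Ly6c2, Oas1a and Ccl5 in each P17 (n = 12) and P28 (n = 11) normoxia mouse, with circles for scan day 1, squares for scan day 2 and bars for the mean ± SD. Fcer2a and Cr2 meet only at the edges of the groups, Ly6c2 reaches 0.43 at P17 and starts at 0.41 at P28, Ccl5 overlaps widely, and Oas1a overlaps through 1 P17 mouse at 1.07 and 1 P28 mouse at -0.20.

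Of 11 MHC class I genes 4 were higher and of 10 class II genes 6, and no other passed. B2m lay at -0.47, 1.14 and 1.71 at P17 and at 1.46, 2.47 and 2.99 at P28, with overlap, and was 1.35 higher (SE 0.24, adjusted p = 0.00136). With it rose H2-K1, a class I heavy chain that near-identical family members can share signal with, by 0.82, Nlrc5, the transcriptional activator of class I genes, by 0.61, and Tap1, of the peptide transporter, by 0.48 on 1 of its 2 probes. The median change was 0.43 over the class I genes and 0.50 over the class II genes. Ciita, the master activator of class II genes, lay at 1.54, 2.30 and 2.84 at P17 and at 2.66, 3.29 and 3.75 at P28 and was 0.94 higher (SE 0.151, adjusted p = 5.46e-04), although with the software's signals it stood at 0.17 (adjusted p = 0.556). Cd74, the invariant chain, was 0.68 higher, H2-Oa 0.61 and H2-DMa 0.51. With scan day as a block 1 class I gene (B2m, adjusted p = 0.0490) and 1 class II gene (Ciita, 0.0437) passed, and with slide as a block 0 passed in both lists. With the share of probes above background as a covariate 1 class I and 2 class II genes passed.

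Of 22 interferon response genes 12 were higher and 0 lower, with a median of 0.40, where 667 of all 12802 genes (5.21%) were higher. Oas1a, a sensor of double-stranded RNA, lay at -0.98, -0.39 and 1.07 at P17 and at -0.20, 0.71 and 1.91 at P28. It was 1.05 higher (SE 0.221, adjusted p = 0.00531), and mouse 4 held the highest P17 value, the next being 0.03. Ifi27l2a was 0.99 higher, Rtp4, an interferon-induced chaperone, 0.85 and Xaf1, an interferon-induced factor of cell death, 0.85. All 4 were higher in Cy3 alone too. None of the 22 passed with scan day or with slide as a block, and 1 passed on day 1 alone. With the share of probes above background as a covariate 9 passed. The day 1 mean of the 22 genes was 1.54 at P17 and 1.85 at P28, and the day 2 mean was 1.29 at P17 and 1.87 in the single P28 mouse.

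Ly6c1 and Ly6c2, surface proteins of inflammatory monocytes and of memory-type T cells, were higher at P28. Ly6c1 lay at -0.99, 0.03 and 0.33 at P17 and at 0.51, 1.11 and 1.80 at P28, without overlap, and was 1.22 higher (SE 0.154, adjusted p = 5.06e-05). Ly6c2 was 1.19 higher (SE 0.158, adjusted p = 8.47e-05). Both were higher on each of the 4 slides with both groups, Ly6c1 by 0.85 to 1.79, and both passed with scan day and with slide as a block. The sequences of the pair are so alike that their probes may share signal. Of 19 monocyte markers 4 were higher and 0 lower, with a median of 0.38, where 667 of all 12802 genes (5.21%) were higher. With the share of probes above background as a covariate 1 passed, where 502 of all genes were higher. With scan day as a block Ly6c2 alone of these 4 passed. Ms4a6c, a membrane protein of monocytes, was 0.75 higher, Ctss, a lysosomal protease, 0.89 and Fcgr1, the high-affinity IgG receptor, 0.23. Of the 23 fits that left out 1 mouse, Ctss kept its call in 13 and Fcgr1 in 6. Of 8 dendritic cell markers 1 passed, the transcription factor Irf8 at 0.58, which did not pass with scan day as a block (adjusted p = 0.166).

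Cytotoxic lymphocyte genes were higher in 3 of 16 cases, where 667 of all 12802 genes (5.21%) were higher. Ccl5, a chemokine of effector T and NK cells, lay at 0.25, 1.59 and 3.18 at P17 and at 1.72, 2.64 and 4.18 at P28 and was 1.19 higher (SE 0.349, adjusted p = 0.0381), with wide overlap. Its call was lost in 10 of the 23 fits that left out 1 mouse, among them those without mouse 4 (adjusted p = 0.0523) and without P17 mouse 2 (0.0681), and with scan day as a block (0.442). Klra8, an activating NK receptor, lay at 0.03, 0.43 and 1.39 at P17 and at 0.72, 1.20 and 3.34 at P28 and was 0.95 higher (adjusted p = 0.0135). Klrd1, the CD94 chain of NK receptors, was 0.78 higher. Both lost the call with scan day as a block (0.318 and 0.550). Of 14 homing receptors 3 were higher, again against 5.21% of all genes, and none of these 3 passed with scan day or with slide as a block. Ccr6, which guides B cells and T cells to mucosa and its lymphoid tissue, was 0.73 higher (adjusted p = 0.00235). Itgae, the integrin that holds lymphocytes in epithelium, was 0.35 higher. Gpr15, a receptor for homing to the colon, was not well above background on any P17 array and was above it on 9 of 11 at P28. It entered the test only through the P28 group, so its call (adjusted p = 0.00411) is no separate support. Its level is given as a bound, at least 1.15-fold higher at P28. With the share of probes above background as a covariate 0 of the 16 cytotoxic and 1 of the 14 homing genes passed. The bound uses the lowest signal among well-detected probes of each array for the P17 mice.

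**Figure D3:**
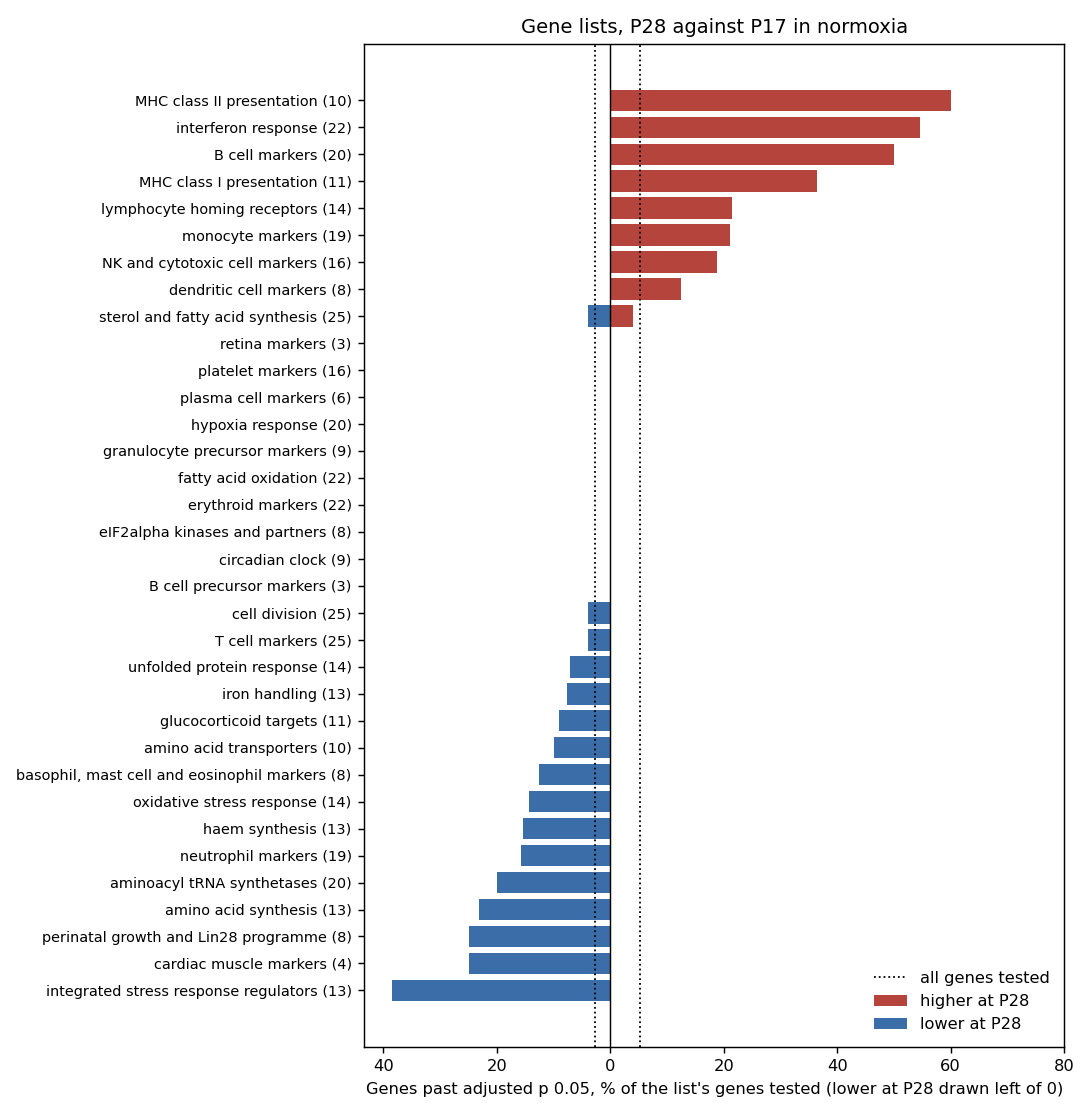
Percent of the tested genes of each list called higher or lower at P28 in normoxia, with dotted lines at the share of all 12802 genes called higher (5.21%) and lower (2.64%). The higher side holds 12 of 22 interferon, 6 of 10 MHC class II, 4 of 11 MHC class I and 10 of 20 B cell genes, and the lower side 5 of 13 stress response genes.

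The remaining genes with the greatest rises have no common list. Cul4a, a scaffold of ubiquitin ligases, lay at 0.82, 1.95 and 2.56 at P17 and at 1.03, 3.34 and 3.68 at P28, with overlap, and was 1.42 higher (SE 0.253, adjusted p = 0.00141). Vangl1, a planar polarity protein, was 1.35 higher, Xpo7, a nuclear export receptor of erythroid cells, 1.35 and Ncoa7, a coactivator with a role in oxidation resistance, 1.34. Ptpn14, a cytoplasmic tyrosine phosphatase, was 1.27 higher (adjusted p = 3.61e-05) and passed with slide as a block (0.00719). Only 1 of its 3 probes rose, the others standing at -0.02 and 0.06, and for Vangl1 and Xpo7 too a second probe did not pass. Apol10a, of the apolipoprotein L family, was 1.20 higher. P17 mouse 4 was the lowest of its group in Cul4a, Xpo7, Ncoa7, Ptpn14 and Apol10a, and P28 mouse 9 the lowest of its group in Cul4a. These mice also had the lowest erythroid means of their groups, 3.11 and 2.31. Cul4a, Vangl1 and Ptpn14 passed with scan day as a block, whereas Xpo7, Ncoa7 and Apol10a did not (adjusted p = 0.168, 0.108 and 0.0976).

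Several programmes that a change of diet could be asked about showed few calls or none. Of 22 fatty acid oxidation genes 0 passed, with changes between -0.39 and 0.38. Of 9 circadian clock genes and of 20 hypoxia response genes 0 passed. Of 25 sterol and fatty acid synthesis genes the desaturases Scd1 and Scd2 passed in opposite directions, at 0.27 and -0.76, and Scd1 kept its call in 4 of the 23 fits that left out 1 mouse. Of 14 oxidative stress genes 2 passed, Mt2, a metallothionein, at -0.76 (-0.11 under median centring, without passing) and Sod1, the cytosolic superoxide dismutase, at -0.43, of which Sod1 stood at 0.23 under median centring, below the 0.42 of all genes. Of 11 glucocorticoid targets Zbtb16 alone passed. Of 25 cell division genes Bub1b, of the spindle checkpoint, passed at -0.36, and the median of that list was -0.32. With array weights 9 of the 25 were lower and 1 higher, where 918 of all 12802 genes were lower and 1504 higher. Of 16 platelet markers 0 passed, of 8 basophil, mast cell and eosinophil markers the basophil protease Mcpt8 passed at -0.41 (kept in 8 of those 23 fits), and of 4 cardiac muscle genes Tnnt2 passed at -0.22 (kept in 13). Of 3 tested retina markers 0 passed. A call that was not made does not show that these genes stayed the same.

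**Figure D4:**
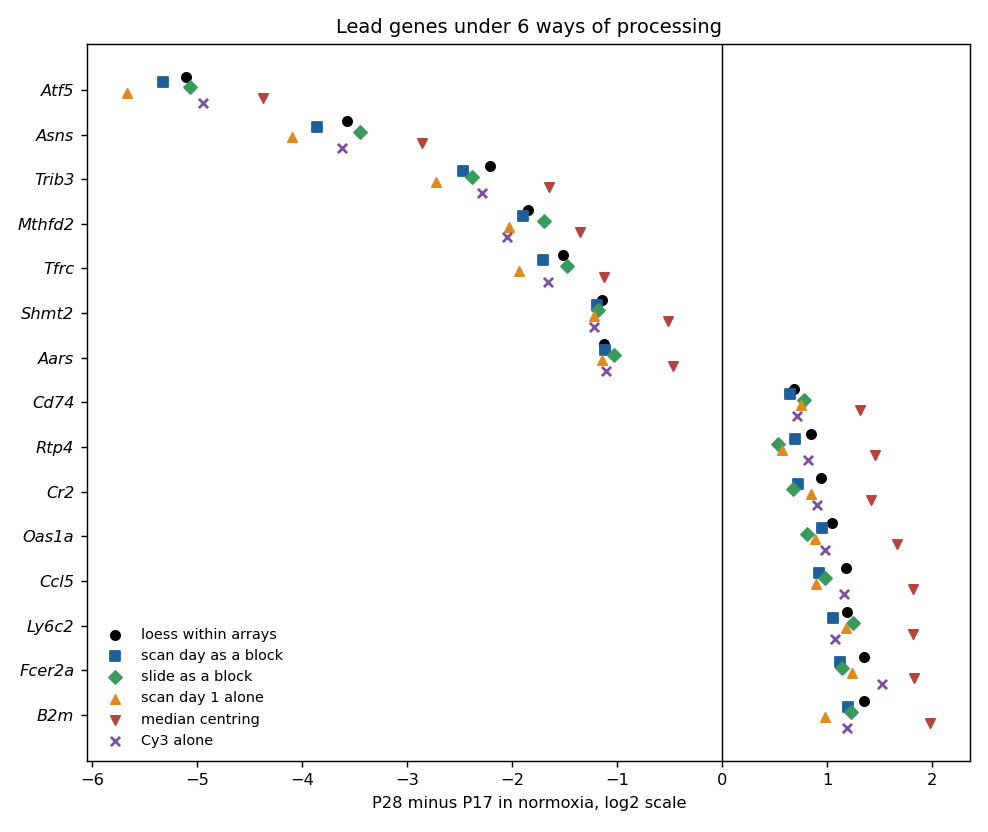
Change from P17 to P28 (log2) of 15 genes in normoxia under 6 ways of processing the same arrays. The falls of Atf5, Asns and Trib3 keep their sign under all 6, and median centring shifts every gene upward.

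Within the P17 group, mice with more Atf5 also had more Asns, Trib3 and Tfrc, the 3 of a family of 8 relations over 12 mice that passed by both Pearson's r and rank. Asns followed Atf5 with r = 0.948 (permutation p = 0.00146, adjusted 0.00584) and Spearman's coefficient = 0.692 (permutation p = 0.0153, adjusted 0.0409), and r was 0.785 without the 2 mice farthest from the median of Atf5. Trib3 gave r = 0.822 (permutation p = 6.4e-04, adjusted 0.00512) and Spearman's coefficient = 0.846 (p = 0.00114, adjusted 0.00912), and 0.763 without those mice. Tfrc gave r = 0.885 (permutation p = 0.00446, adjusted 0.0119) and Spearman's coefficient = 0.713 (p = 0.0120, adjusted 0.0409), and 0.567 without them. The mean of the erythroid markers gave r = 0.826 (permutation p = 0.00902, adjusted 0.0180) and Spearman's coefficient = 0.420 (p = 0.178, adjusted 0.238), but 0.05 without them, so in normoxia this relation rests on those mice. Ddit3 passed by rank (Spearman's coefficient = 0.664, permutation p = 0.0207, adjusted 0.0414) but not by Pearson's r (0.504, permutation p = 0.0377, adjusted 0.0603), with 0.528 without those mice. The rank call of Ddit3 was lost under median centring, with the software's signals and in Cy3 alone (adjusted p = 0.309, 0.0763 and 0.135). In Cy3 alone those of Asns and Tfrc were lost too (0.0525 and 0.0640), and r for Asns without the 2 farthest mice was 0.431. Psat1 (r = 0.460, permutation p = 0.113) and Alas2, the first enzyme of haem synthesis in erythroid cells (0.420, permutation p = 0.136), did not pass, and Chac1, above background on 1 of the 12 arrays, gives no usable relation. Within scan day 2, with 8 mice, r was 0.949 for Asns, 0.830 for Trib3, 0.933 for Tfrc, 0.857 for Alas2 and 0.938 for the erythroid mean (exact permutation, adjusted p = 0.0237 each), while no Spearman's coefficient passed after adjustment (0.0745 to 0.0793 for these 5). Without the 2 farthest of those mice r was 0.774 for Asns, 0.675 for Trib3, 0.448 for Tfrc, 0.281 for Alas2 and 0.275 for the erythroid mean. In the 12 P17 hyperoxia mice r with Atf5 was 0.797 for Asns, 0.955 for Trib3, 0.884 for Tfrc and 0.925 for the erythroid mean (permutation, adjusted p = 0.0096, 1.6e-04, 6.93e-04 and 5.6e-04), with Spearman's coefficients of 0.748, 0.979, 0.867 and 0.923 (permutation, adjusted p = 0.0153, 1.6e-04, 0.00123 and 3.2e-04). Without the 2 farthest of those mice r was 0.702, 0.981, 0.961 and 0.762. Of the other relations there, Alas2 passed by r alone (0.767, permutation, adjusted p = 0.0177; 0.293 without those mice) and Ddit3 did not pass (r = 0.575, permutation, adjusted p = 0.0747; Spearman's coefficient 0.580, adjusted 0.0596). Psat1 went the other way without passing (r = -0.43, permutation, adjusted p = 0.177; Spearman's coefficient -0.40; r = -0.78 without those mice). In normoxia mouse 4 is among the 2 farthest mice and was nearer to the P28 mean for 8 of the 12 genes with the greatest fall and for 1 of the 12 with the greatest rise.

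The same interval in mice that had breathed 75% oxygen gives a separate set of values. Between 12 P17 and 10 P28 hyperoxia mice 2796 of 27406 probes (10.2%) passed, 1906 higher and 890 lower. The 705 probes called in both arms, all in the same direction, are 35.5% of the normoxia calls and 25.2% of the hyperoxia calls. Atf5 went from 1.94 ± 1.32 (SD, n = 12) to -3.05 ± 0.45 (SD, n = 10) in hyperoxia, a change of -4.996 (adjusted p = 5.90e-07). Asns changed by -3.13, Trib3 by -2.35, Mthfd2 by -1.53, Aars by -1.25, Tfrc by -1.73 and Stfa1 by -1.80, and all passed. Of the rises, Fcer2a changed by 1.25, B2m by 1.10, Ly6c1 by 1.11 and Oas1a by 1.36, and all passed. Ccl5 was 1.96 higher (adjusted p = 2.31e-04) and Klra8 1.46 higher (adjusted p = 4.27e-06). The hyperoxia arm was scanned mostly on day 1 at both ages, with 11 of 12 and 8 of 10 mice.

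A test of the difference between the arms (limma, interaction) called 0 of 27560 probes after adjustment, with 3159 under an unadjusted p of 0.05. For Atf5 the difference between arms was 0.11 (SE 0.62). Of the 1970 probes called in normoxia and tested in hyperoxia, 1705 had the same sign in hyperoxia, and 705 passed there in the same direction. Of the 70 named genes that passed in normoxia, which were picked by size or by list, 67 had the same sign in hyperoxia and 49 passed there. Those that did not pass in hyperoxia include Xpo7 at 0.72, Ncoa7 at 0.64 and Vangl1 at 0.67, and Zbtb16 at -0.26. Trem1, whose normoxia change lay in the reference channel, stood at 0.18.

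**Figure D5:**
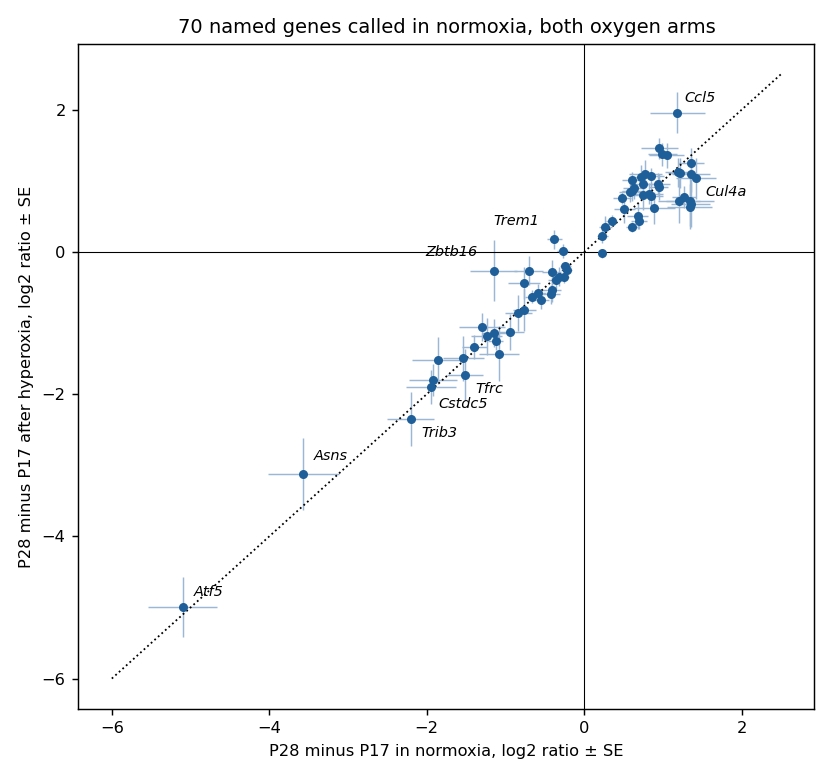
Change from P17 to P28 (log2, ± SE) in hyperoxia against the same change in normoxia for the 70 named genes that passed in normoxia. Of these 67 have the same sign in both arms, with Atf5 (-5.10 and -4.996) farthest from the rest. The genes were picked by size or by list. Among all 1970 normoxia calls tested in hyperoxia 1705 had the same sign.

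P12 normoxia mice (n = 11), which were not part of the test, place P17 on a longer course. Atf5 lay at -1.36, 1.07 and 3.27 (lowest, median, highest) at P12, Asns at -2.18, 0.21 and 2.42, and Tfrc at 0.66, 2.30 and 4.07, each median nearer to that of P17 than to that of P28. Stfa1 lay at 2.42, 3.77 and 6.4 and Cstdc5 at 2.77, 3.92 and 6.64, so that their medians were ordered P12, P17, P28 from high to low. Rtp4 lay at -0.29, -0.03 and 0.23 and its medians were ordered the other way. Fcer2a, with 0.38, 1.51 and 2.31, and Cr2, with 0.88, 1.35 and 2.14, had P12 medians close to those of P17.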

How the data were processed

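Blood mononuclear cell RNA of 66 C57BL/6 pups was hybridised by the authors to 2-colour Agilent arrays against Universal Mouse Reference RNA and read with Agilent Feature Extraction 10.7.3.1 (file headers). The deposited scanner files hold a median and a background intensity for both dyes at each of 62976 spots. The authors' deposited series matrix holds log2 ratios of the same arrays, used as an alternative. Depth does not apply, and the number of arrays limits the precision. Here intensities were background-corrected (normexp, offset 50) and loess-normalised within arrays. Outlier and control spots were left out, and spots of a probe were averaged, giving 56605 probes, of which 32994 had a RefSeq symbol (GRCm38.p6, 22911 genes). Of the 1986 called probes, 585 had none. Probes well above background on at least 0.5 of the arrays of 1 group were tested on log2(Cy3/Cy5), since intensities show blood in Cy3, with limma 3.58.1 (R 4.3.3) over the 23 normoxia arrays of P17 and P28, at a Benjamini-Hochberg adjusted p of 0.05. The probe with the highest mean Cy3 stood for a gene. Samples were grouped by their labels; mice were numbered in accession order. Exact and 100000-resample permutation tests (SciPy 1.17.1) were two-sided. The fit was tested on simulated data. Named genes were the 12 with the greatest rise and the 12 with the greatest fall, up to 4 called members of each list, and all stress response and amino acid synthesis members; Cd79b and Ebf1 were named after their values were seen. Members and lists were chosen with earlier results of these data known. Slide, scan day, normalisation, background, filter, channel, covariates and leaving out each mouse were varied. Centring on the tested probes, slide as a random block, and 6 groups with scan day as a block were chosen after seeing the data. The result for 1 marker gene is not reported here.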

Additional observations from a re-analysis of the deposited data

Results flagged for a closer look

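Among the 43 genes whose hyperoxia values were considered, 4 had a P28 hyperoxia mouse (of 10) that lay far from the others of its group, with a gap to the nearest of more than 0.466 of the range of the group; chance gives about 1 in 20 groups. Values are log2 ratios of blood to reference. Tfrc stood at 1.77 in mouse 1, with the nearest at 0.97. Stfa1 stood at 0.68 in mouse 3, with the nearest at 0.41. Ddit3 stood at -0.23 in mouse 8, with the nearest at -0.53. Irf8 stood at 2.41 in mouse 8, with the nearest at 2.76.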

How the results depend on the processing

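The 1986 probes called in normoxia became 9478 under median centring, 4148 when arrays were centred on the tested probes, 4776 with array weights and 3289 with the erythroid mean as a covariate. They became 290 with scan day as a block, 451 with all 6 groups and scan day, 251 on day 1 alone, 0 on day 2 alone (765 under an unadjusted p of 0.05), 61 with slide as a block, 1068 in Cy3 alone and 132 in Cy5 alone. Leaving out 1 mouse gave 1379 (without P28 mouse 3) to 2720 (without P28 mouse 9). The cause of these shifts was not tested. The age change in hyperoxia, 2796 probes, became 595 under median centring and 1061 with slide as a block. The difference between arms gave 2 probes with slide and 1 with scan day as a block. The share of probes above background differed by -0.77 points on day 2 alone, where P28 has 1 mouse (exact permutation p = 1, in a comparison that cannot reach 0.05). The signal of the 23 arrays over background limits dim genes, to an extent that was not tested. Of 70 called named genes 29 kept the call with scan day as a block, 8 with slide, 28 on day 1 alone, 37 with the share of probes above background as a covariate, 48 under median centring, 50 with the software's signals and 60 in Cy3 alone. Leaving out 1 mouse ended the call in at least 1 of 23 fits for Cars, Ccl5, Cdkn1c, Ctss, Fcgr1, Mars1, Mcpt8, Scd1 and Tnnt2, which kept it in 20, 13, 11, 13, 6, 15, 8, 4 and 13 fits, and for no other of the 70.

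Counts of called list members, in either direction, also moved. Under median centring, which called 5107 of all 12802 genes higher and 24 lower, they rose from 12 to 19 for interferon response, from 4 to 12 for monocyte, 3 to 9 for NK, 4 to 9 for MHC class I, 3 to 9 for homing, 1 to 8 for iron, 0 to 8 for fatty acid oxidation, 3 to 6 for amino acid synthesis and for neutrophil, 2 to 6 for oxidative stress and for sterol synthesis, 0 to 6 for hypoxia, 2 to 5 for haem, 0 to 5 for erythroid, 1 to 4 for cell division and for dendritic cell, 0 to 4 for plasma cell, 1 to 3 for T cell, transporters and glucocorticoid targets, 0 to 3 for eIF2 alpha kinases, 1 to 2 for unfolded protein, 0 to 2 for granulocyte precursor, and 0 to 1 for clock and retina. They fell from 5 to 2 for stress response regulators and from 1 to 0 for cardiac muscle. With the software's signals, which called 601 genes higher and 218 lower, they fell from 10 to 5 for B cell, 6 to 2 for MHC class II, 4 to 2 for tRNA synthetases, and 1 to 0 for basophil, cardiac muscle, cell division, dendritic cell and unfolded protein, and rose from 1 to 2 for glucocorticoid targets and from 0 to 1 for eIF2 alpha kinases and plasma cell.

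A named gene that was called in either setting turned sign in 35 cases, 23 of them in Cy5 alone, which holds the reference. Those were Zbtb16 (0.86), Trem1 (0.33), Pdia4 (0.11), B2m (-0.10), H2-K1 (-0.05297), Tnnt2 (0.04757), Stfa2 (0.04726), Bub1b (0.0416), Aars (0.03892), Nlrc5 (-0.03485), Trib3 (0.03244), Scd2 (0.02453), Fcgr1 (-0.02205), Cr2 (-0.02197), Fcrl1 (-0.02022), Ly6c1 (-0.01958), Gpr15 (-0.01563), Cpox (0.01), Tfrc (0.009017), Oas1a (-0.008616), Itgae (-0.007966), Bank1 (-0.006477) and Hbb-bh1 (-0.002108). Under median centring Aldh18a1 (0.52), Jchain (0.43), Cars (0.34), Cebpg (0.24), Sod1 (0.23), Mars1 (0.15), Trem1 (0.0507) and Pdia4 (0.04506) turned, where the median of all genes moved to 0.42. Cars (0.08924) turned when arrays were centred on the tested probes, Pdia4 (0.0658) and Scd1 (-0.0229) on day 2 alone, and Trem1 (0.02943) in Cy3 alone. A further 129 changes of sign were not called under either setting. No paired analysis was possible because mice of different ages share no numbers in the labels.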
